A study of Mus musculus with 38 samples.

Results

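The Hox clusters of the mouse were examined for 5 histone modifications in embryonic stem cells with and without IκBα. The members were 38 listed Hox genes, found by symbol among the 21911 protein-coding genes that GENCODE M21 places on chromosomes 1 to 19, X and Y of GRCm38, with 10 genes in HoxA, 10 in HoxB, 9 in HoxC and 9 in HoxD. Each gene was taken with 2 kb on either side, and each cluster from its first to its last member with 2 kb on either side. The windows were chr6:52160417-52262880 for HoxA, chr11:96192316-96370256 for HoxB, chr15:102919103-103038852 for HoxC and chr2:74666310-74767142 for HoxD. The windows of 29 of the 38 genes overlapped that of another member, and the GENCODE models of Hoxa3, Hoxc5 and Hoxd3 run across several of their neighbours, so that gene counts within a cluster are not independent of each other.

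Chromatin immunoprecipitation and sequencing (ChIP-seq) had been done in ES-E14TG2a cells, a line of mouse embryonic stem cells, grown on gelatin in serum with leukaemia inhibitory factor and collected at 0 h, before any differentiation. IκBα-WT cells (labelled IkappaBalpha+/+) had received non-targeting guides, and IκBα-KO cells (IkappaBalpha-/-) had received guides against exon 1 of Nfkbia, the gene of IκBα, with Cas9, and each genotype was represented by 3 clones that had each grown from a single cell. Each modification had 3 IκBα-WT and 3 IκBα-KO libraries, which gives 30 ChIP libraries among 38 samples, and the other 8 samples were inputs. Neither RNA nor protein of IκBα can be read from these libraries, so the knockout was not checked here. The labels give the same antibody for H3K27ac and for H3K4me1, whereas the methods of the study name a different one for the former, and which was used cannot be told from the files.

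Hox genes encode homeodomain transcription factors that give cells of the embryo their position along the body axis. They lie in 4 clusters that arose by duplication, so that genes with the same number in different clusters are paralogues, and genes with low numbers (the 3′ or anterior end) are switched on earlier and further towards the head than genes with high numbers (the 5′ or posterior end). In pluripotent cells the clusters are held silent by Polycomb: its repressive complex 2 deposits H3K27me3 over long domains, while promoters within them also carry H3K4me3, a pairing known as bivalent chromatin. H3K4me1 and H3K27ac mark enhancers and active promoters, and H3K9me3 marks heterochromatin. Retinoic acid, through its receptors, is a classical inducer of the anterior genes.

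Depth was taken from the reads that the lists count inside called regions. A library had 34736900 to 35951500 such reads for H3K4me1, 22943100 to 28339800 for H3K27ac, 8548340 to 12105300 for H3K9me3 and 8910890 to 10938400 for H3K27me3. The H3K4me3 lists held 21836 to 26806 peaks and no read counts. All 13 markers of embryonic stem cells examined had an H3K4me3 call, and of 8 markers of feeder fibroblasts 3 had one (Col1a1, Thy1 and Pdgfrb) and the other 5, among them Col1a2 and Postn, had none in any library. All 6 markers of endoderm, 4 of mesoderm and 5 of neural cells had an H3K4me3 call too, and all lay under H3K27me3. An H3K4me3 call therefore did not set stem cell markers apart from these. Of all 21911 genes, 14803 had an H3K4me3 call and 12107 an H3K27me3 call in at least 1 library.

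The clusters are unlike the chromosomes that carry them. They hold 2.08 to 2.99 CpG per 100 bp, against 0.797 to 0.980 on the whole of chromosomes 2, 6, 11 and 15, and repeats cover 13.5 to 24.5% of them against 29.8 to 33.0%. RefSeq promoters (250 bp upstream of a start, GRCm38.p6) were at hand for 22 of the 38 genes, with 24 promoters in all, and the median of their CpG counts was 12.5, against 6 over all 32851 promoters. The promoters of Hoxa2 and Hoxd12, the genes of HoxA and HoxD with the least H3K4me3 sequence over the gene window among those with a promoter entry, are printed to show how CpG (in capitals) is spread there, with 6 and 10 of them. They lie at chr6:52164832-52165081 on the minus strand and chr2:74674763-74675012 on the plus strand. No H3K4me3 call of any library overlapped either promoter.
Hoxa2 promoter: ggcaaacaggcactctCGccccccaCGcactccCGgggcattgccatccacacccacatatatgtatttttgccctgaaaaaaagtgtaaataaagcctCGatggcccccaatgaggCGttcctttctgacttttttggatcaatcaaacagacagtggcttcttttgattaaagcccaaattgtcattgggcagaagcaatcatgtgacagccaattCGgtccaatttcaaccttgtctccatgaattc
Hoxd12 promoter: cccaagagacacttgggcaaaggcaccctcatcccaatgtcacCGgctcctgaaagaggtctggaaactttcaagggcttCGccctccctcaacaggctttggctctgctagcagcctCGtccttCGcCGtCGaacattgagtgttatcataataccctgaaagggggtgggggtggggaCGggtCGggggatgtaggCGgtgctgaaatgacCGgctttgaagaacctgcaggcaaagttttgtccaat
Searched on both strands, TGATNNAT, the form bound by Hox proteins together with Pbx, was present in 16.7% of the 24 Hox promoters and in 7.68% of all promoters of this length, and the Hoxa2 promoter held 1 match. CCAGNGGGC, the core of the CTCF motif, was present in 4.17% and 2.45%.

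Direct repeats of AGGTCA or GGTTCA or AGTTCA spaced by 5 bases, the form bound by retinoic acid receptors, were absent from the 24 promoters and present in 0.0548% of all promoters. Within the clusters and 10 kb beside them there were 5 such repeats in 0.565 Mb, or 8.85 per Mb, against 2.34 per Mb over the 4 chromosomes. The 3 that lie in introns or between exons of the paralogues Hoxa3, Hoxb3 and Hoxd3 are printed because they share their half-sites (in capitals). Those of Hoxa3 and Hoxb3 are identical, and that of Hoxd3 differs from them in the spacer alone. They lie at chr6:52175533-52175549 on the minus strand, chr11:96341236-96341252 on the plus strand and chr2:74741540-74741556 on the plus strand.
Hoxa3 repeat: GGTTCAagaagAGTTCA
Hoxb3 repeat: GGTTCAagaagAGTTCA
Hoxd3 repeat: GGTTCAagcagAGTTCA
All 3 sites were under H3K27me3 in all 6 libraries. Those of Hoxa3 and Hoxb3 were under H3K4me1 and H3K27ac in 3 of 3 libraries of each genotype. H3K4me3 was called at the Hoxa3 site in 0 IκBα-WT libraries and 2 IκBα-KO libraries. The site of Hoxd3 was under H3K4me1 in 2 IκBα-WT libraries and 0 IκBα-KO libraries, and under H3K27ac in 1 and 0.

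**Figure D1:**
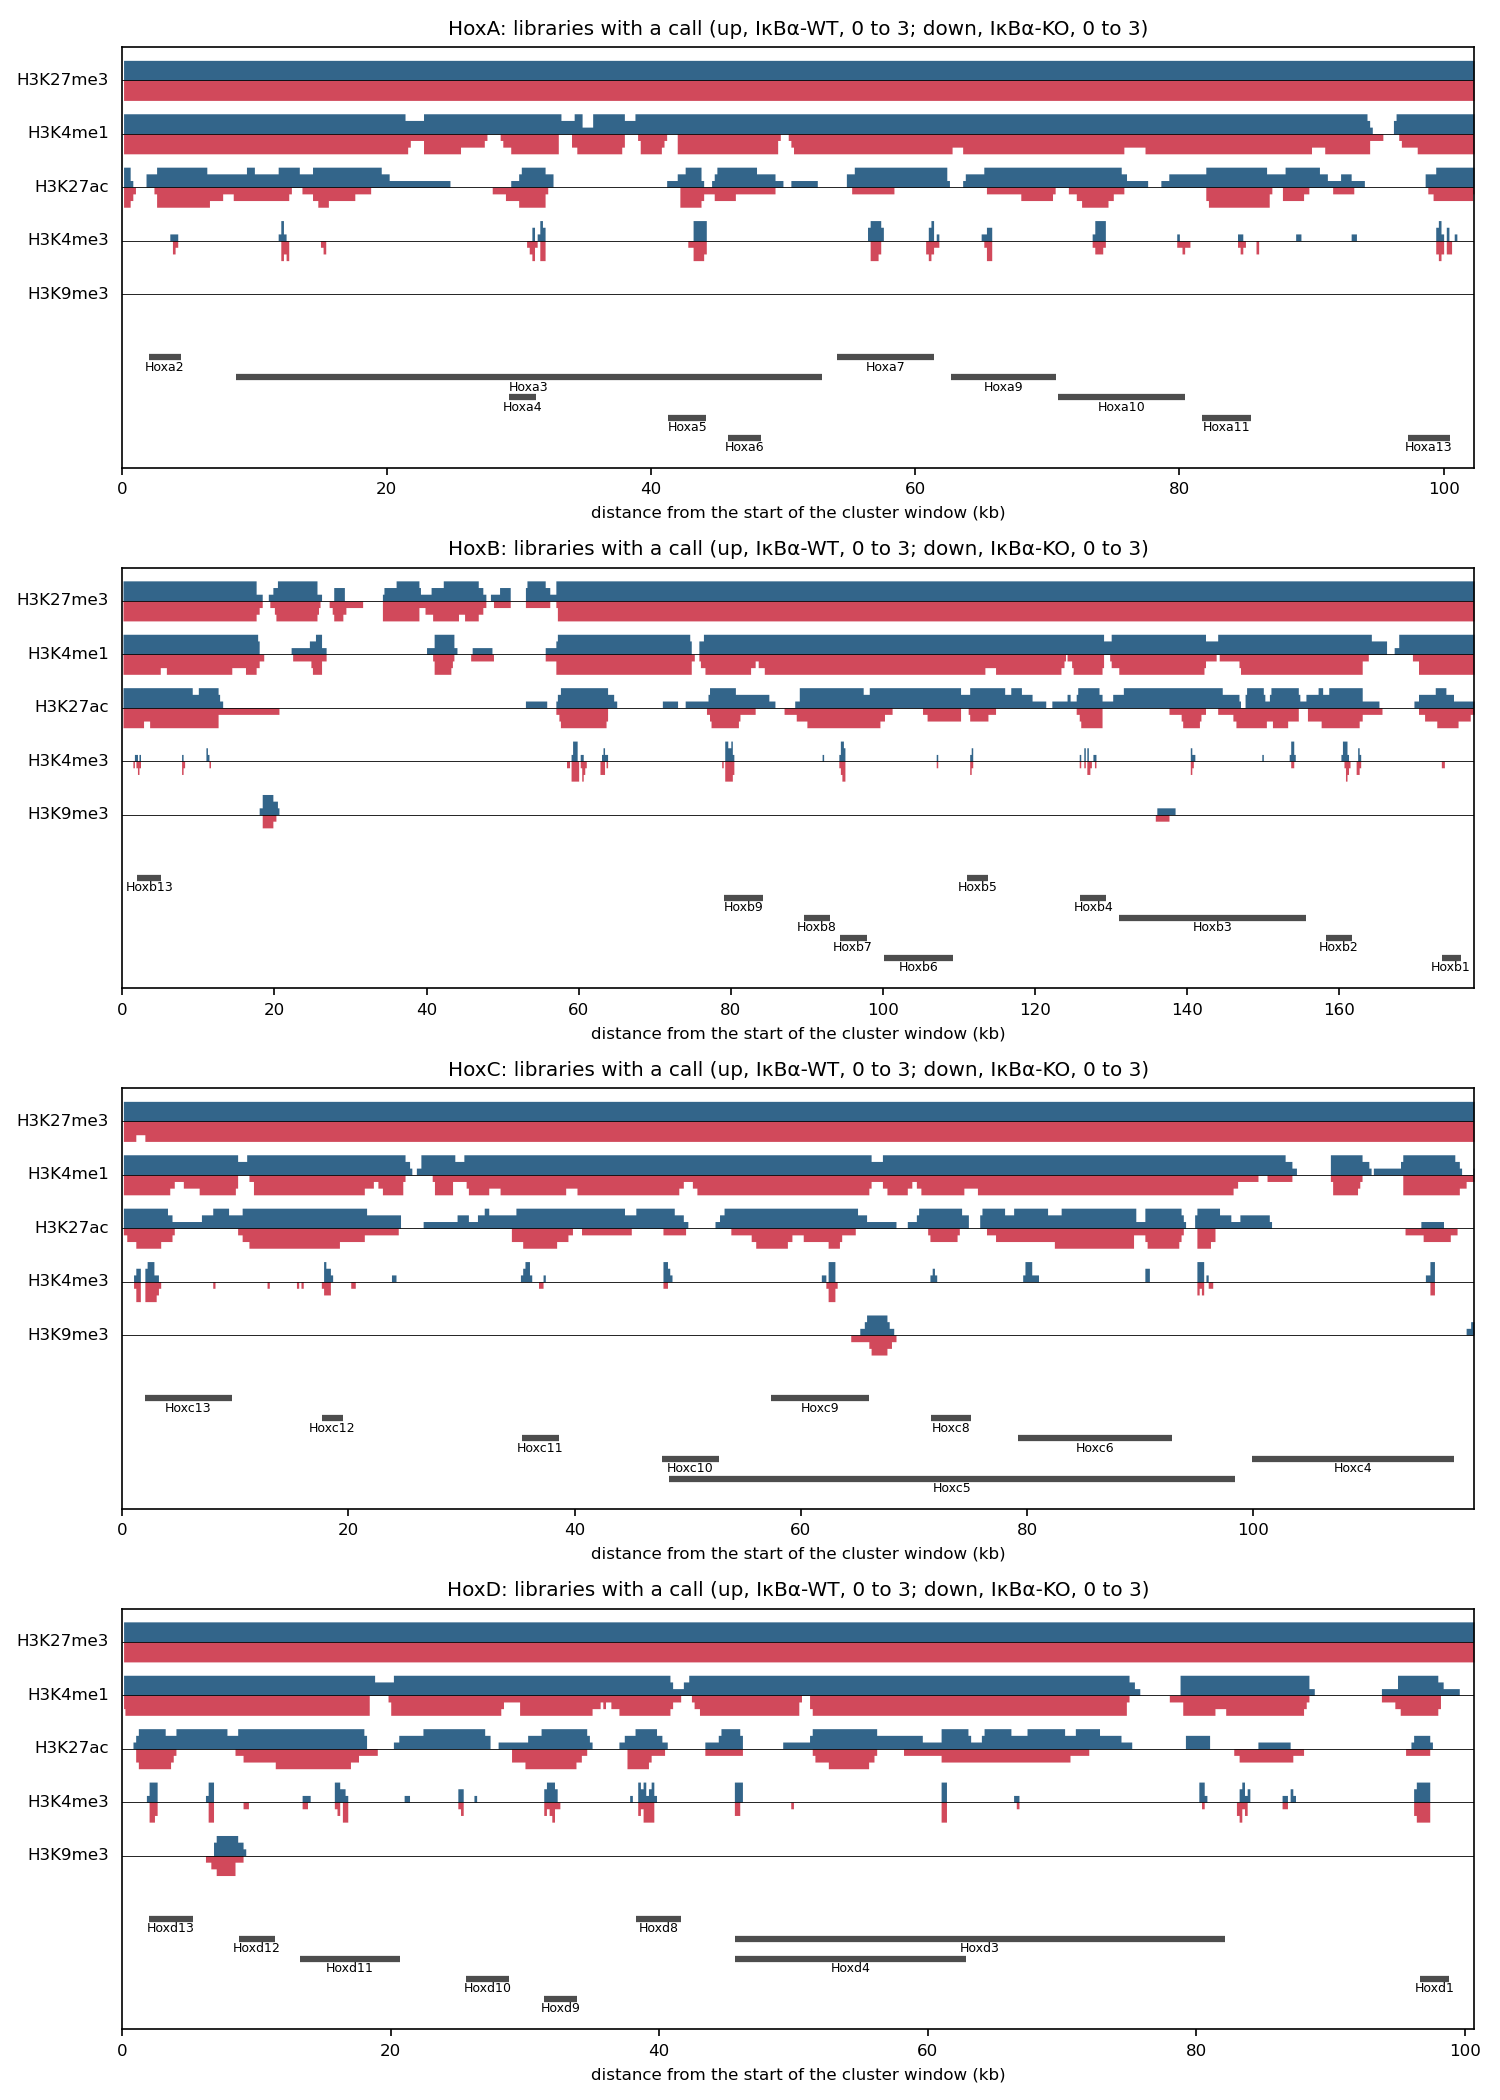
Calls along the 4 Hox clusters for 5 modifications, with distance from the start of each window in kb on the horizontal axis; blue bars give upwards the number of IκBα-WT libraries with a call (0 to 3), red bars downwards that of IκBα-KO libraries, and grey bars are gene models. H3K27me3 filled HoxA, HoxC and HoxD in both genotypes, apart from a gap in 1 IκBα-KO library of HoxC, and H3K27ac was thinner below the line than above it in all 4 clusters.

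H3K27me3, the Polycomb mark, filled the clusters in both genotypes. HoxA and HoxD were 100% covered in all 6 libraries, and HoxC was 100% covered in all but IκBα-KO replicate 3, where it was 99.3%. HoxB was 89.3, 91.7 and 90.8% covered in the IκBα-WT libraries and 92.1, 87.4 and 91.9% in the IκBα-KO libraries, with gaps in the long interval between Hoxb13 and Hoxb9, and the groups overlapped. The longest single call in each cluster was 131 to 238 kb in all libraries. All 38 genes had an H3K27me3 call in all 6 libraries, against 8731 of all 21911 genes. For 0 of the 38 were the IκBα-KO libraries all lower or all higher in covered sequence, where over 12107 genes with a call 7.32% were all lower and 10.8% all higher, but a window that is full in both genotypes can move in neither direction.

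The read density within H3K27me3 calls overlapped between the genotypes when scaled by TMM, and did not when scaled by the sum of reads in calls. Per kb of called sequence the clusters held 14.4, 17.1 and 17.2 CPM (reads scaled to the library totals given under processing) in IκBα-WT and 14.9, 15.1 and 14.5 in IκBα-KO. IκBα-WT replicate 1 lay below all IκBα-KO libraries, and the other 2 IκBα-WT libraries above them. The difference of the means was -8.58%, with a two-sided exact permutation p of 0.4 (n = 3 against 3, smallest p possible 0.1). Scaled by the sum of reads in calls it was -16.6% (exact permutation p = 0.1). None of the 7 regions that could be tested passed (edgeR quasi-likelihood test, Benjamini-Hochberg adjustment over all regions), their log2 fold changes ran from -0.18 to 0.18, and 2 of them had an unadjusted p under 0.05. DESeq2 also called 0. Accordingly 0 of the 38 genes lay under a lower or higher region, where 2.25% of 9364 genes tested lay under a lower one and 3.33% under a higher one. This count rests on IκBα-WT replicate 1 and on the treatment of length: all 38 genes lay under lower regions without that library, with no length offset, among regions of like length only, and with TMM on raw counts. Without that library the difference in density over the clusters was -13.5%. It also had the least H3K27me3 called over the genome, 214 Mb against 259 Mb in each of the other 2. Input reads within the Hox calls were 19.4 per kb in IκBα-WT and 21.3 in IκBα-KO, and within all H3K27me3 calls 17.2 and 19.7. Relative to input the difference in density was -4.65% (exact permutation p = 0.4), and with input reads as the offset of the edgeR test 0 of the 38 genes lay under a changed region.

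**Figure D2:**
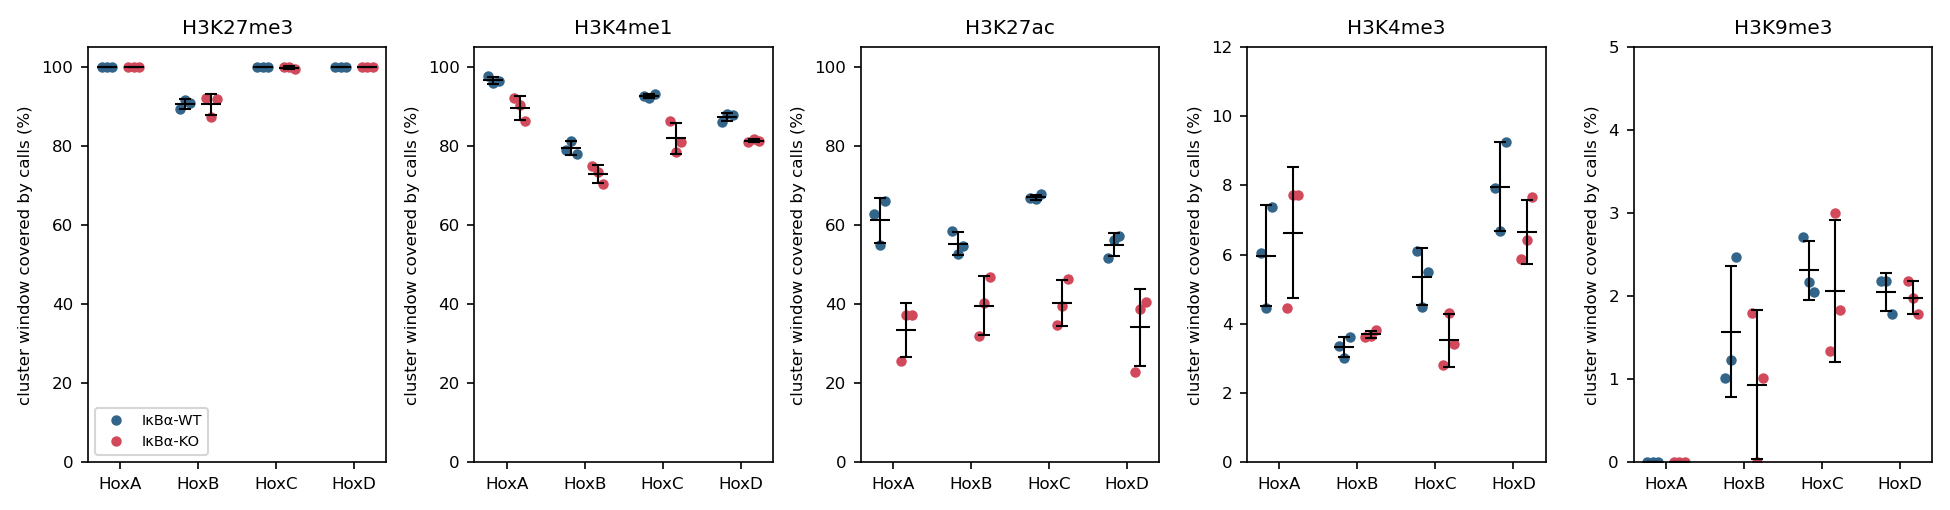
Share of each Hox cluster window under calls, in percent, with 1 panel for each modification; points are libraries (blue IκBα-WT, red IκBα-KO) and bars the mean ± SD (n = 3). H3K27ac and H3K4me1 separated the genotypes in all 4 clusters, H3K4me3 separated them in HoxB (higher in IκBα-KO) and HoxC (lower), and the vertical scales of the last 2 panels are shorter.

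H3K27ac covered less of every Hox cluster in IκBα-KO than in IκBα-WT. Over the 4 clusters, 60.0, 57.2 and 60.6% of the sequence was called in the IκBα-WT libraries and 29.4, 39.2 and 43.5% in the IκBα-KO libraries. Every IκBα-KO library was below every IκBα-WT library, with replicate 1 the lowest, and the difference of the means was -36.9% (exact permutation p = 0.1, the smallest possible) and -30.2% without IκBα-KO replicate 1. Over the genome the difference went the other way, with 380 to 393 Mb called in IκBα-WT and 411 to 419 Mb in IκBα-KO. When each library was held to the same number of top-ranked calls, the difference in the clusters was -21.5% and the groups overlapped (exact permutation p = 0.3).

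HoxA was 62.7, 54.9 and 66.0% covered in IκBα-WT and 25.6, 37.3 and 37.3% in IκBα-KO. HoxB, the longest cluster, was 58.5, 52.8 and 54.6% covered against 31.9, 40.2 and 46.8%. HoxC was 66.7, 66.6 and 67.7% covered against 34.7, 39.6 and 46.4%. None of these 3 clusters had overlapping genotypes. HoxD was 51.8, 56.1 and 57.3% covered against 22.8, 38.9 and 40.7%, again without overlap. In steps of 200 bp, 38.4 kb of the clusters were called in all 3 IκBα-WT libraries and no IκBα-KO library, and 0.6 kb, in HoxB, showed the reverse. The same count was not made over the genome.

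All 38 genes had an H3K27ac call in at least 1 library and 30 had one in all 6. Of all 21911 genes, 16272 and 14160 did. For 18 genes the IκBα-KO libraries were all below the IκBα-WT libraries in covered sequence, and for 0 genes all above, where over 16272 genes 7.79% were all lower and 19.8% all higher. The median share of a gene window under H3K27ac was 74.8% in IκBα-WT and 42.3% in IκBα-KO, and the median difference was -23.9 percentage points, against 0 over all genes.

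Among posterior genes, which pattern the trunk, limbs and genital region, 9 of 16 were lower. Hoxa9 was 90.0, 90.0 and 76.6% covered in IκBα-WT and 20.8, 4.08 and 52.5% in IκBα-KO. Hoxc10 was 69.2, 51.6 and 69.2% covered against 0, 22.0 and 9.82%. Hoxd10 was 61.0, 54.0 and 86.1% covered against 23.7, 9.82 and 23.7%. In each of these 3 genes every IκBα-KO library lay below the lowest IκBα-WT library. With Hoxa10 (78.0, 56.1 and 88.3% against 32.6, 19.4 and 47.3%) all 3 genes of paralogue group 10, which set lumbar identity in the vertebral column, were lower. The other posterior genes that were lower were Hoxc9, Hoxc11, Hoxc13, Hoxd12 and Hoxd13.

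Among central genes, which pattern the neck and the upper trunk, 6 of 15 were lower. Hoxa7 was 66.9, 73.1 and 61.6% covered in IκBα-WT and 0, 28.2 and 0% in IκBα-KO. Hoxb5 was 100, 82.3 and 100% covered against 0, 57.0 and 68.7%. Hoxb6, its neighbour, was 100, 91.6 and 100% covered against 16.2, 62.1 and 45.2%. The IκBα-KO libraries varied widely among themselves, and all lay below the IκBα-WT libraries. Hoxc8 was 86.7, 65.4 and 73.4% covered against 0, 32.0 and 44.1%, and Hoxb4 and Hoxc5 were lower too. Among anterior genes, which pattern the hindbrain and neck, the 3 of paralogue group 3 were lower and the other 4 were not: Hoxb1 was 40.7, 36.9 and 100% covered in IκBα-WT and 65.3, 89.9 and 76.9% in IκBα-KO, with overlapping libraries. Averaged over genes, coverage went from 61.0 to 50.4% in the anterior genes, from 67.9 to 45.2% in the central genes and from 80.0 to 49.5% in the posterior genes. Whether these 3 differences differ from each other was not tested.

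**Figure D3:**
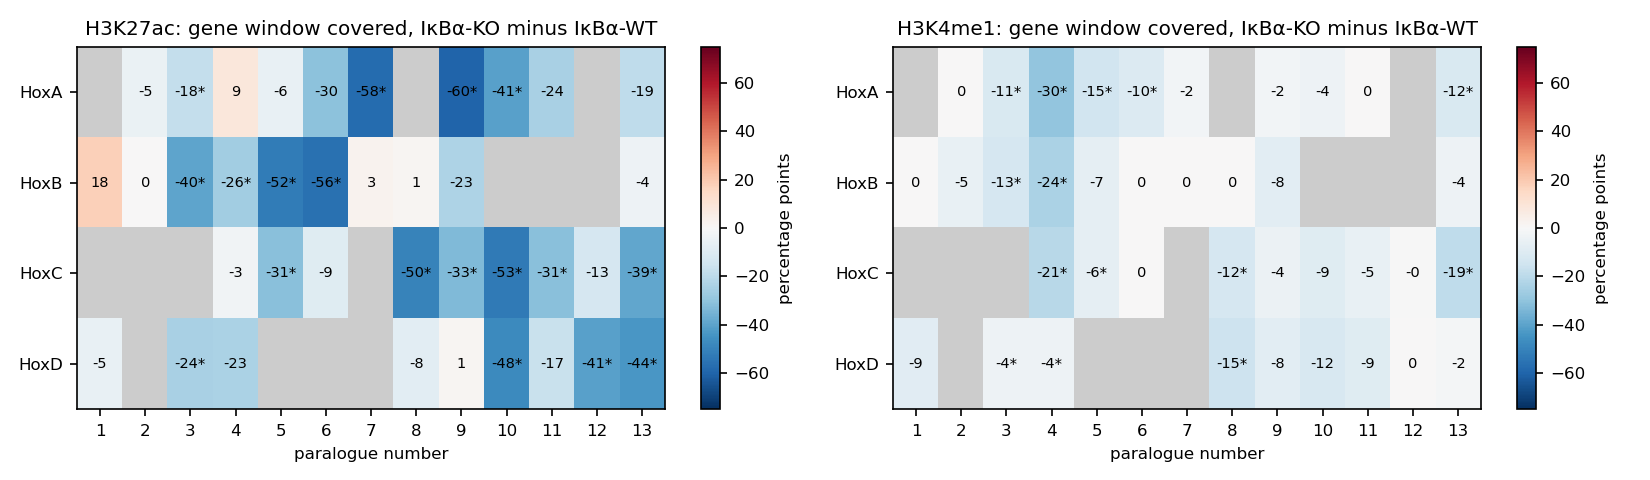
Difference in the share of each Hox gene window under H3K27ac (left) and H3K4me1 (right), IκBα-KO mean minus IκBα-WT mean in percentage points, by cluster (rows) and paralogue number (columns, 1 at the anterior end); n = 3 libraries a genotype. An asterisk marks genes whose IκBα-KO libraries all lay beyond the IκBα-WT libraries, all of them lower (18 for H3K27ac and 14 for H3K4me1), and grey marks positions without a listed gene.

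The density of H3K27ac was taken over the calls of each library, which were 286 to 304 kb long in IκBα-WT and 147 to 218 kb in IκBα-KO, and not over the same sequence. It was 2.2, 2.17 and 2.15 CPM per kb called in IκBα-WT and 2.08, 1.99 and 1.96 in IκBα-KO, a difference of -7.32% without overlap (exact permutation p = 0.1). Input reads within the same calls moved with it, from 34.9 to 32.0 per kb, where they were 31.4 and 30.9 per kb in all H3K27ac calls. Over all H3K27ac calls the mean density was 2.67 CPM per kb in IκBα-WT and 2.76 in IκBα-KO. Unscaled ChIP reads were 50.5 and 47.1 per kb within the Hox calls, and 62.0 and 64.7 within all H3K27ac calls. Relative to input the difference in density over the Hox calls was -0.531% and the groups overlapped (exact permutation p = 0.8). Per kb of window, which joins coverage and density, the difference was -41.8%. Of 33 merged regions in the clusters 21 were called in all 6 libraries, and 1 of them was lower and 0 higher by edgeR's quasi-likelihood test, while 8 had an unadjusted p under 0.05. It lay at chr15:102995001-103013200 over Hoxc6 and beside Hoxc8, inside the model of Hoxc5, and held 2.44, 2.14 and 2.36 CPM per kb in IκBα-WT and 1.90, 1.77 and 1.96 in IκBα-KO. Its log2 fold change was -0.30 (SE 0.07, adjusted p = 0.0149). The 3 genes at this region made 3 of 35 tested under a lower region and 0 under a higher one, where 5.48% of 14436 genes lay under a lower and 21% under a higher region. The call was lost without IκBα-KO replicate 2, IκBα-WT replicate 1 or IκBα-WT replicate 3. With input reads as the offset it was kept (-0.24, adjusted p = 0.0285 by edgeR), and with no length offset 24 genes lay under a lower region. With the input offset 9 genes lay under a changed region, 5 lower (Hoxc5, Hoxc6, Hoxc8, Hoxd9 and Hoxd10) and 4 higher (Hoxa9, Hoxa10, Hoxb9 and Hoxd8). Another region, chr2:74686601-74693800 between Hoxd11 and Hoxd10, was called in 3 IκBα-WT libraries and 0 IκBα-KO libraries, with 2.45, 2.17 and 2.02 CPM per kb, and has no test because there is no count for the IκBα-KO libraries.

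H3K4me1 lay over nearly all of the clusters and was lower in IκBα-KO, in extent and in density. It covered 87.5, 88.2 and 87.3% of the clusters in IκBα-WT and 82.4, 79.8 and 78.3% in IκBα-KO. The calls were also more broken, with 19, 21 and 21 calls in IκBα-WT and 38, 38 and 40 in IκBα-KO. Density was 3.03, 2.99 and 3.00 CPM per kb called against 2.71, 2.74 and 2.71. None of these 3 measures overlapped between genotypes. The difference was -8.56% in covered sequence, -9.56% in density (exact permutation p = 0.1 for each, the smallest possible) and -17.3% per kb of window. H3K4me1 covered 486 to 488 Mb of the genome in IκBα-WT and 476 to 483 Mb in IκBα-KO, where its density was 2.15 and 2.2 CPM per kb. Input reads were 34.9 per kb in IκBα-WT and 32.5 in IκBα-KO within the Hox calls, and 31.1 and 30.7 within all H3K4me1 calls. Relative to input the difference in density was -3.72%, still without overlap (exact permutation p = 0.1).

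**Figure D4:**
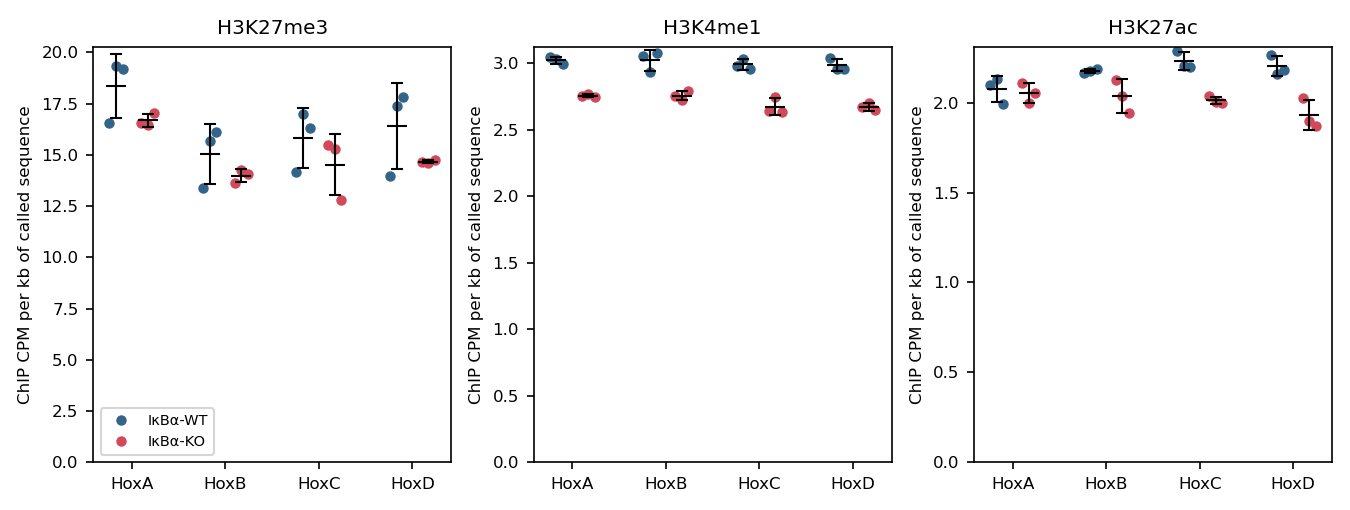
ChIP reads per kb of called sequence in each Hox cluster, in CPM, for H3K27me3, H3K4me1 and H3K27ac; points are libraries (blue IκBα-WT, red IκBα-KO) and bars the mean ± SD (n = 3). H3K4me1 was lower in all IκBα-KO libraries in each cluster, H3K27ac in HoxB, HoxC and HoxD, and for H3K27me3 IκBα-WT replicate 1 lay apart from the other 2 IκBα-WT libraries in each cluster.

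Of 15 H3K4me1 regions tested in the clusters 7 were lower and 0 higher (edgeR quasi-likelihood test), where over the genome 732 were lower and 1784 higher of 44625. The 4 long regions that make up most of each cluster were among the 7, and were lower under each of the 14 alternative settings run on them. Of the others, chr6:52256601-52278000 at Hoxa13 and chr11:96248001-96267600 upstream of Hoxb9 each lost their call under 8 of 14 settings, the first without any 1 of the 6 libraries and the second with the replicate block and without any library but IκBα-WT replicate 3, and chr11:96162201-96211000 at Hoxb13 lost its call under 1, TMM on raw counts. In HoxD, chr2:74653001-74742200 held 3.05, 3.01 and 3.10 CPM per kb in IκBα-WT and 2.67, 2.69 and 2.66 in IκBα-KO (log2 fold change -0.19, SE 0.02, adjusted p = 1.07e-05), and covered Hoxd13 to Hoxd3. In HoxC, chr15:102945201-103023000 held 2.98, 3.09 and 3.05 against 2.65, 2.72 and 2.56 CPM per kb (-0.20, SE 0.02, adjusted p = 0.000113), and covered Hoxc11 to Hoxc4. Both regions had tight libraries, far apart between genotypes. In HoxA, chr6:52149401-52255800 held 3.05, 3.07 and 2.99 against 2.75, 2.80 and 2.75 CPM per kb (-0.13, SE 0.02, adjusted p = 0.000263). In HoxB, chr11:96268201-96358600 held 3.22, 3.15 and 3.30 against 2.99, 2.84 and 2.91 CPM per kb (-0.15, SE 0.02, adjusted p = 0.00107).

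With input reads as the offset of the edgeR test, the log2 fold changes of these 4 regions were -0.15 (adjusted p = 0.000356), -0.14 (0.00303), -0.09 (0.00400) and -0.08 (0.0207) in the same order. Input itself differed by -0.15 to -0.07 on the log2 scale within the 7 lower regions. Each genotype had a single input, whose own error the test does not see, and over the genome the calls went from 2516 to 8738 with this offset. It left 34 Hox genes under a lower region, the same ones, and put Hoxd1 under a higher one. The region at Hoxa13 did not pass with this offset (log2 fold change -0.06, adjusted p = 0.230 by edgeR). Hoxa13 stayed among the 34 because its window reaches the end of the long HoxA region.

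Through the regions lower in the length-adjusted test 34 of the 38 genes lay under a lower region and 0 under a higher one, where 4.7% of 16470 genes tested lay under a lower and 11.6% under a higher region. The 34 genes share 6 regions and are not 34 separate results. The 4 that did not were Hoxb1, Hoxc12, Hoxc13 and Hoxd1, genes at the outer ends of HoxB, HoxC and HoxD. The region over Hoxb1 held 2.75, 2.78 and 2.88 CPM per kb in IκBα-WT and 2.59, 2.72 and 2.83 in IκBα-KO, and that over Hoxd1 held 2.28, 2.18 and 1.94 against 2.27, 2.74 and 2.11, with overlapping libraries in both.

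By covered sequence, the IκBα-KO libraries were all below the IκBα-WT libraries for 14 genes and all above for 0, where over 17297 genes 14.3% were all lower and 11.4% all higher. All 4 genes of paralogue group 4, expressed from the posterior hindbrain backwards, were among the 14. Hoxa4 was 100, 97.5 and 100% covered in IκBα-WT and 64.6, 71.2 and 72.3% in IκBα-KO. Hoxb4 was 100, 86.4 and 100% covered against 73.8, 84.6 and 56.6%. Hoxc4 was 68.1, 63.5 and 71.5% covered against 61.7, 38.6 and 39.5%. In all 3 the highest IκBα-KO library lay below the lowest IκBα-WT library, and Hoxd4 went from 100% in each IκBα-WT library to 96.2% in each IκBα-KO library. Hoxb6, Hoxb7 and Hoxb8 were 100% covered in all 6 libraries, so that only density could differ there. H3K27ac and H3K4me1 coverage were both lower for 7 genes: Hoxa3, Hoxb3, Hoxb4, Hoxc5, Hoxc8, Hoxc13 and Hoxd3. Of the 38 genes, 18 were lower in H3K27ac and 14 in H3K4me1. Whether these sets share more genes than unrelated sets of their size was not tested. The share of all genes lower in both marks was not computed.

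H3K4me3, the promoter mark, changed at single sites in both directions. Over the 4 clusters it covered 5.50, 4.4 and 5.97% of the sequence in IκBα-WT and 4.06, 5.20 and 5.30% in IκBα-KO, with overlapping libraries and a difference of -8.27% (exact permutation p = 0.5). With the same number of top-ranked calls in each library it was -20.1% and the groups did not overlap (exact permutation p = 0.1). HoxC was 6.12, 4.48 and 5.50% covered in IκBα-WT and 2.81, 4.32 and 3.43% in IκBα-KO, all lower. HoxB was 3.36, 3.02 and 3.61% covered against 3.63, 3.64 and 3.82%, all higher by a narrow margin.

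Stretches of the H3K4me3 regions that the results turn on are printed as they read on the plus strand of GRCm38.p6, outside annotated exons, with CpG in capitals. They lie at chr6:52221855-52222094 upstream of Hoxa7 and beside Hoxa9, chr15:102921918-102922157 at Hoxc13, chr15:102999033-102999272 in Hoxc6, chr15:103014536-103014774 at Hoxc5 and chr2:74762539-74762778 at Hoxd1.
Hoxa7 and Hoxa9 region: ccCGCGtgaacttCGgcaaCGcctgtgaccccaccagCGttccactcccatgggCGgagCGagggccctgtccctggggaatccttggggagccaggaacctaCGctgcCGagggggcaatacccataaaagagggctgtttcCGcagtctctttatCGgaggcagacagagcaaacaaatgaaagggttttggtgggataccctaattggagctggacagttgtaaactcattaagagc
Hoxc13 region: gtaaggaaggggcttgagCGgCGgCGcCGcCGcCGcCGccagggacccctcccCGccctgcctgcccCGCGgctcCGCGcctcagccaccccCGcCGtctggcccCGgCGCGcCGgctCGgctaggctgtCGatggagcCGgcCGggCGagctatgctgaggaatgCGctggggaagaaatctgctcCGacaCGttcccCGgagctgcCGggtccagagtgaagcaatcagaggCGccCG
Hoxc6 region: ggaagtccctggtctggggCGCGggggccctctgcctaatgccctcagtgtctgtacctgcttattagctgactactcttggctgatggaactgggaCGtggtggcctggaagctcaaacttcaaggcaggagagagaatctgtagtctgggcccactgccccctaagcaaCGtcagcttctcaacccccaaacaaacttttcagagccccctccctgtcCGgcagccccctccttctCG
Hoxc5 region: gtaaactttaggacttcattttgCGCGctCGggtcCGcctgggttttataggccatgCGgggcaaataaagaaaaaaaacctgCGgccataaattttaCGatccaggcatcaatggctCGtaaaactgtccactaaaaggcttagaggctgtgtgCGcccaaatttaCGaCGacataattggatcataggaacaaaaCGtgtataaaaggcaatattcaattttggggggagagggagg
Hoxd1 region: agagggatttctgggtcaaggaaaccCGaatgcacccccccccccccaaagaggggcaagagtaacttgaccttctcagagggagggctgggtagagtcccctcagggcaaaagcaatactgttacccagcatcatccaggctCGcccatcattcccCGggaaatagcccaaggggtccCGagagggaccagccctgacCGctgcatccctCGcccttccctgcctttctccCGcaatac
The regions as a whole held 4.49 (Hoxc6) to 9.52 (Hoxd1) CpG per 100 bp.

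The clusters held 86 merged H3K4me3 regions, of which 22 were called in all 6 libraries and could be tested. By limma on the log2 of the highest fold enrichment over input, 3 were lower and 1 was higher in IκBα-KO, where over the genome 874 were lower and 1597 higher of 14907 and the median log2 fold change was 0.06. At Hoxc5, chr15:103014045-103014774 had a fold enrichment of 5.72, 4.87 and 5.92 in IκBα-WT and 2.74, 3.06 and 2.39 in IκBα-KO (log2 fold change -1.02, SE 0.23, adjusted p = 0.00389), and it kept its call under each of the 9 alternatives run on it. At Hoxd1, an anterior gene that responds early to retinoic acid, chr2:74762524-74763721 had 8.06, 7.12 and 8.89 against 3.65, 4.82 and 4.59 (-0.89, SE 0.23, adjusted p = 0.0113), a call lost without IκBα-KO replicate 1. At both sites the lowest IκBα-WT library lay above the highest IκBα-KO library. The libraries of a genotype shared 1 input, whose own error the limma test does not see.

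The region chr6:52221295-52222240 lay at the start of Hoxa7 and within 2 kb of the 3′ end of Hoxa9. Its fold enrichment was 6.65, 6.57 and 8.40 in IκBα-WT and 4.31, 4.36 and 3.42 in IκBα-KO (-0.84, SE 0.23, adjusted p = 0.0160 by limma). This call was lost without IκBα-KO replicate 3 or IκBα-WT replicate 3. The other Hoxa7 region, chr6:52216864-52217999, had 7.08, 5.68 and 6.67 against 4.44, 3.90 and 4.77 and did not pass (-0.57, SE 0.23, adjusted p = 0.0913). At Hoxc13, the gene at the posterior end of HoxC, chr15:102921117-102922442 was higher, with 5.54, 4.38 and 9.66 in IκBα-WT and 9.45, 12.2 and 13.7 in IκBα-KO (0.92, SE 0.26, adjusted p = 0.0177). IκBα-WT replicate 3 overlapped the IκBα-KO libraries there, and the call was lost without IκBα-KO replicate 2, IκBα-KO replicate 3, IκBα-WT replicate 1 or IκBα-WT replicate 2. By gene, 4 of 23 tested lay under a lower region (Hoxa7, Hoxa9, Hoxc5 and Hoxd1) and 1 under a higher one (Hoxc13), where 7.74% of 13068 genes lay under a lower and 14.3% under a higher region. Hoxa7 and Hoxa9 were counted through the same region.

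**Figure D5:**
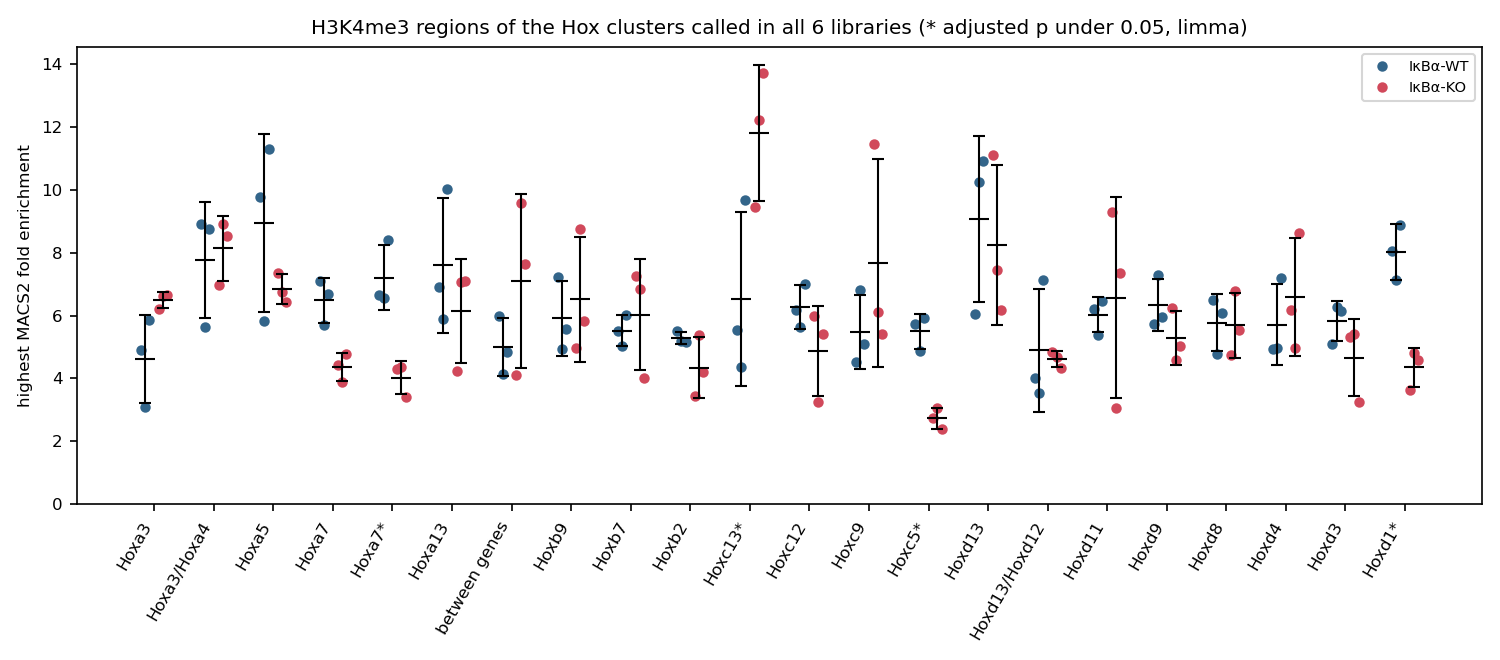
Highest MACS2 fold enrichment of the 22 H3K4me3 regions of the Hox clusters that were called in all 6 libraries, named by the gene whose exons or window they overlap; points are libraries (blue IκBα-WT, red IκBα-KO) and bars the mean ± SD (n = 3). Asterisks mark the 4 regions past an adjusted p of 0.05 by limma, at Hoxa7, Hoxc5 and Hoxd1 (lower) and Hoxc13 (higher).

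The region chr15:102998641-102999665 at Hoxc6 was called in all 3 IκBα-WT libraries, with a fold enrichment of 5.74, 4.89 and 7.75, and in 0 IκBα-KO libraries. Another such region, chr15:102954350-102955247 at Hoxc11, had 4.92, 3.99 and 3.30 in IκBα-WT. No region of the clusters showed the reverse. Regions called in all libraries of 1 genotype alone were not counted over the genome. In covered sequence, Hoxc6 had 1061, 525 and 1497 bp in IκBα-WT and 0 bp in each IκBα-KO library. Hoxc11 had 843, 729 and 678 bp against 0, 244 and 0 bp, and Hoxc10 had 484, 717 and 442 bp against 0, 273 and 258 bp. With Hoxc5 these made 4 genes whose IκBα-KO libraries were all lower, all in HoxC, and Hoxa3 and Hoxc13 were all higher, where over 14803 genes 7.28% were all lower and 23.6% all higher. Hoxc13 had 1102, 1276 and 1251 bp in IκBα-WT and 1350, 2042 and 1797 bp in IκBα-KO. All 38 genes had an H3K4me3 call in at least 1 library, and 26 had one in all 6. Of all 21911 genes, 14803 and 13121 did.

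The overlap of the marks was as follows. All H3K4me3 sequence in the clusters lay on sequence that at least 2 libraries of the same genotype called for H3K27me3, in each of the 6 libraries, against a mean of 34.1% over the genome in IκBα-WT and 28.2% in IκBα-KO. H3K27me3 covered a mean of 96.7% of the clusters in IκBα-WT and 96.6% in IκBα-KO, so that this overlap adds little to that coverage. All H3K4me3 sequence of the clusters also lay on H3K4me1, against a mean of 76.8% over the genome in IκBα-WT and 69.9% in IκBα-KO. The share of it that lay on H3K27ac was 94.0, 93.3 and 89.9% in IκBα-WT and 78.3, 75.4 and 80.9% in IκBα-KO, without overlap, where over the genome it was 90.5 and 90.9%. H3K27ac covered less of the clusters in IκBα-KO, as given above, and whether this share fell beyond that was not tested.

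H3K9me3, the heterochromatin mark, was nearly absent from the clusters. It was called nowhere in HoxA, and covered 1.45, 1.40 and 1.73% of the clusters in IκBα-WT and 1.40, 1.12 and 1.16% in IκBα-KO (exact permutation p = 0.2). A region between Hoxd13 and Hoxd12, chr2:74672601-74675600, was called in all 6 libraries and held 8.29, 8.51 and 10.3 CPM per kb in IκBα-WT and 10.1, 8.88 and 11.8 in IκBα-KO (log2 fold change 0.19, SE 0.16, adjusted p = 0.742). It overlaps the Hoxd12 promoter printed above. One at the end of Hoxc9, chr15:102983601-102987600, was also called in all 6 (0.14, SE 0.19, adjusted p = 0.859). By edgeR and by DESeq2 0 of these 2 regions passed, and 0 had an unadjusted p under 0.05. Input reads within the Hox calls of this mark were 23.8 per kb in IκBα-WT and 30.8 in IκBα-KO, and with input reads as the offset Hoxd12 and Hoxd13 lay under a lower region, against the direction without it. Calls touched 6 of the 38 genes, against 10559 of all 21911. Of the 6, 4 could be tested, with 0 under a lower and 0 under a higher region. The shares over 5580 genes were 0.914% and 0.305%. In covered sequence 0 of the 38 were all lower or all higher, where over 10559 genes 11.1% and 4.94% were.

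Other genes of the Hox pathway were examined for comparison, with edgeR's quasi-likelihood test or limma and adjusted p-values over all regions. Of 31 genes of Polycomb and trithorax complexes, which write and keep the marks of the clusters, 7 lay under a higher H3K4me3 region and 0 under a lower one of 30 tested (Mtf2, Cbx2, Cbx7, Pcgf6, Kmt2b, Kmt2d and Ash2l). The largest of these changes was at Cbx2, a subunit of repressive complex 1 (log2 fold change 1.58, SE 0.22, adjusted p = 0.000108). In H3K27ac 8 of the 31 lay under a higher and 2 under a lower region, those of Ring1 (-0.25, SE 0.04, adjusted p = 0.00277), a ubiquitin ligase of repressive complex 1, and Kdm6b (-0.23, SE 0.06, adjusted p = 0.0339), a demethylase of H3K27me3. Over all genes 14.3% lay under a higher and 7.74% under a lower H3K4me3 region, and 21% and 5.48% for H3K27ac. In H3K4me1 5 of the 31 lay under a higher and 3 under a lower region, where 11.6% and 4.7% of all genes did. The lower ones were the demethylases Kdm6a (-0.17, SE 0.04, adjusted p = 0.0208) and Kdm6b (-0.16, SE 0.03, adjusted p = 0.00180) and 1 region of Jarid2 (-0.08), a subunit of repressive complex 2. The higher ones were another region of Jarid2 (0.18), Suz12 (0.22 and 0.12), Rnf2 (0.21), Kmt2c (0.16) and Ash2l (0.21). Of 9 genes of cofactors, homeodomain proteins that bind DNA beside Hox proteins, Pbx3 had a lower H3K27ac region (-0.54, SE 0.12, adjusted p = 0.0109), Meis1 a lower H3K4me1 region (-0.19, SE 0.04, adjusted p = 0.00733) and Meis2 a lower H3K27me3 region (-0.27, SE 0.07, adjusted p = 0.0482). H3K27ac was higher at Pbx2 (0.15, SE 0.03, adjusted p = 0.00211) and at both regions of Pknox1 (0.20 and 0.25). At Pbx4 all 3 H3K27ac regions were higher (0.38 to 0.57), as were 3 H3K4me1 regions (0.36 to 0.51), and input reads moved with them, by 0.47 to 0.59 on the log2 scale. With input reads as the offset none of the 6 Pbx4 regions was higher and 4 were lower (-0.13 and -0.18 in H3K27ac, -0.16 and -0.19 in H3K4me1), and Pbx3 did not pass (-0.34, adjusted p = 0.116 by edgeR).

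Of 10 homeobox genes that act upstream of the clusters or lie beside them or their relatives, Gbx2 had lower H3K27me3 (-0.46, SE 0.07, adjusted p = 0.00213) and higher H3K27ac (0.20, SE 0.05, adjusted p = 0.0200). Cdx1, an activator of Hox genes, had lower H3K27me3 (-0.29, SE 0.06, adjusted p = 0.0167), higher H3K27ac (0.21, SE 0.04, adjusted p = 0.00259) and higher H3K4me1 (0.23, SE 0.02, adjusted p = 4.53e-05). The same 3 regions reach Pdgfrb, which was examined as a marker of feeder fibroblasts, and the values of these 2 genes cannot be told apart. H3K4me1 was lower at Cdx2 (-0.15, SE 0.04, adjusted p = 0.0398), at Mnx1 (-0.19, SE 0.04, adjusted p = 0.0223) and at Evx2, which lies under the HoxD region described above. With input reads as the offset Cdx2 did not pass (-0.05, adjusted p = 0.414 by edgeR), and Mnx1, Gbx2 and Cdx1 stayed past the threshold in the same direction. Evx2 was 24.6, 37.9 and 51.1% covered by H3K27ac in IκBα-WT and 0, 18.9 and 0% in IκBα-KO, and 100% covered by H3K27me3 in all 6 libraries.

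Other homeobox genes under Polycomb were examined in the same way. Of 47 such genes, among them Pax, Lhx, Dlx and Irx genes, 11 were all lower and 7 all higher in H3K27ac coverage. Over all genes with an H3K27ac call, 7.79% were all lower and 19.8% all higher. The median difference was -1.41 percentage points, against -23.9 in Hox genes. H3K4me3 coverage was all lower in 11 of the 47 and all higher in 0, against 4 and 2 of the 38 Hox genes. Over all genes with an H3K4me3 call, 7.28% were all lower and 23.6% all higher. H3K4me1 coverage was all lower in 9 of the 47 and all higher in 1, against 14 and 0 of the Hox genes. Over all genes with an H3K4me1 call, 14.3% and 11.4% were. In H3K4me1, where 4.7% of all genes lay under a lower and 11.6% under a higher region, 5 of the 47 lay under a lower region and 2 under a higher one, Irx3 (0.34, SE 0.05, adjusted p = 0.000404) and Irx6 (0.29, SE 0.06, adjusted p = 0.00942). Input reads were 27.7 per kb in IκBα-WT and 41.9 in IκBα-KO at Irx3 and 29.1 and 33.9 at Irx6. With input reads as the offset Irx3 turned to -0.30 (adjusted p = 0.00109 by edgeR) and Irx6 did not pass (0.03, adjusted p = 0.783). Of the 24 genes nearest to the clusters on either side, 3 were all lower and 4 all higher in H3K27ac coverage. The shares over all genes were 7.79% and 19.8%, as above. In H3K4me1 2 lay under a lower region and 1, Tax1bp1, under a higher one (0.34, SE 0.08, adjusted p = 0.0223 by edgeR). The 2 lower ones were Ttll6 and Evx2, through the regions at Hoxb13 and over HoxD described above. They are therefore not separate from the Hox result. Skap2, beside HoxA, had higher H3K4me3 (1.08, SE 0.21, adjusted p = 0.00147) and higher H3K27ac (0.32, SE 0.05, adjusted p = 0.00143). The difference between Hox genes and these lists was not tested.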

How the data were processed

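The sources were deposited lists of called regions for 30 ChIP-seq libraries. Per the study's methods, the authors trimmed reads (Trim Galore 0.6.6), aligned H3K4me3, H3K27me3 and H3K4me1 to GRCm38 (Bowtie2 2.4.4), removed multimapped and low-quality alignments, marked duplicates (SAMtools 1.15) and dropped blacklisted sequence and the Drosophila spike-in of H3K27me3. The aligner of H3K27ac and the treatment of H3K9me3 are not given in the sources used here. For H3K4me3 the authors deposited MACS2 2.2.7.1 peaks, each with a score, its highest fold enrichment and the −log10 of its q-value and p-value. For the others the authors deposited epic2 regions in bins of 200 bp with ChIP counts, input counts, a p-value, an FDR, a score and a log2 ratio of ChIP over input. Regions were called in each library at an FDR of 0.05 against 1 input for each genotype, and H3K27ac and H3K4me1 shared a pair of inputs. The lists do not count reads outside calls, and the sequencing depths that the study's methods give for 4 of the marks were not used here.

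Calls of the 6 libraries of a mark that touched (1 bp) were merged, and merged regions called in all 6 were tested over the genome, IκBα-KO against IκBα-WT: summed counts with edgeR 4.0.16 (R 4.3.3), covered length as offset and TMM on length-adjusted counts, or log2 fold enrichment with limma 3.58.1, no pseudocount, Benjamini-Hochberg adjusted. CPM divides counts by the same TMM-scaled totals, and counts of calls that cross a window edge were shared out by overlap. A gene lay under a changed region if its window overlapped 1 with an adjusted p under 0.05. All lower or all higher means that the 3 IκBα-KO libraries lay beyond the 3 IκBα-WT libraries. Single values were tested by two-sided exact permutation of 20 assignments (SciPy 1.17.1). Scripts were tested on simulated data. Labels number the replicates alike in both genotypes, but same-numbered libraries did not deviate together (correlations -0.02 to 0.03), so they were not paired. The p-values measure the spread between clones. The libraries of a genotype shared 1 input for a mark, and the error of that input is not in these p-values. This holds for H3K4me3 fold enrichment and for coverage too, since both were taken against input.

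Only some of the members are named in the text. The same holds for genes of the comparison lists that passed a test or did not overlap. A gene that is not named can therefore have changed. The members and lists were chosen with earlier results of these data known. Alternatives were another normalization (DESeq2 1.42.0), the DESeq2 test, count and length filters, stricter calls, other windows, a replicate block and each library left out. TMM on raw counts, input reads as the offset and density relative to input (input reads per kb in the clusters over those in all calls) were added after seeing the data. The sequence of 1 H3K4me3 region is not reported here.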

Additional observations from a re-analysis of the deposited data

How the results depend on the processing

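Of 157 alternative values of the gene counts and cluster values, 139 kept their direction and, for counts, their size, 15 moved and 3 turned. The number of Hox genes under a changed H3K4me1 region, 34, ran from 33 to 37. The number for H3K27ac, 3, was 19 with TMM on raw counts and 9 (5 lower, 4 higher) with input reads as the offset (both chosen after seeing the data), 24 with no length offset, 0 among regions of like length, and 0 to 7 with a library left out (0 without IκBα-KO replicate 2, IκBα-WT replicate 1 or IκBα-WT replicate 3, and 7 without IκBα-KO replicate 3), all lower but for the 4. TMM on raw counts moved the median of all H3K27ac regions to -0.13 on the log2 scale. The number for H3K27me3, 0, was 38 with TMM on raw counts, with like length only and with no length offset, and 0 to 38 with a library left out, 38 being without IκBα-WT replicate 1, all lower. The number for H3K9me3, 0, was 2 with input reads as the offset, both lower. The number for H3K4me3, 5, was 2 to 4 with a library left out (2 without IκBα-KO replicate 3 and 3 without IκBα-WT replicate 3). The change in H3K27me3 covered sequence, -0.0964%, was 0.0609% with 10 kb beside the outer genes and -0.427 to 0.441% with a library left out (0.103% without IκBα-WT replicate 2 and 0.441% without IκBα-KO replicate 2). Scaled by the sum of reads in calls, the difference in density was -17.1% for H3K27ac and -16.6% for H3K27me3, without overlap, and relative to input reads -0.531% and -4.65%, with overlap. Of 150 alternative values of the regions past the threshold, 123 stayed past it and 27 did not, with none turned. The Hoxc5 H3K4me3 region had no value with a mean fold of at least 5, nor the H3K27ac region with like length only. Where no construction of the alternative shows it, the cause was not tested.

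With the replicate block the number of genes was 34 for H3K4me1, 5 for H3K4me3, 3 for H3K27ac and 0 for both H3K9me3 and H3K27me3, the same as without it. With 3 pairs the smallest exact p is 0.25. Reads are counted in calls alone, so a loss of coverage can be a small fall past the calling threshold, and reads outside calls cannot be compared.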
